A study of Mus musculus with 4 samples.

Results

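The 8 genes Ugcg, Smpd1, Smpd2, Asah1, Sptlc1, Sptlc2, Sgpl1 and Sphk1 encode enzymes that make, convert or break down ceramide and its relatives. They were taken as every probe set whose platform annotation named 1 gene and that gene was on this list, which gave 11 probe sets for 8 of the 8251 genes that the array measured in this way. RNA was measured on 4 Affymetrix mouse arrays in CD4+CD8+ double-positive thymocytes, the immature T cells that make up most of the thymus. Per the labels, the thymi were those of female mice of the strain C3H/HeN at 4 weeks of age, and the cells were sorted with microbeads. For 3 h they were cultured with 1e-07 M dexamethasone, a synthetic ligand of the glucocorticoid receptor (2 arrays), or with medium and 0.1% PBS (2 arrays). The series design calls the 2 extracts per group technical replicates and does not say how many mice were pooled. The p-values below therefore measure the spread between extracts and not between animals. With 2 arrays against 2, a two-sided exact permutation test cannot give a p under 0.333, so the tests come from limma. It fits a linear model to each gene and moderates the variances across all tested genes.

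Ceramide is the hub of sphingolipid metabolism. It is made from serine and palmitoyl-CoA in a pathway that starts with serine palmitoyltransferase, or it is released from sphingomyelin by sphingomyelinases. It leaves this pool when glucosylceramide synthase adds glucose, when it is converted to sphingomyelin or ceramide phosphate, or when a ceramidase cuts it to sphingosine. Sphingosine is phosphorylated to sphingosine-1-phosphate, which a phosphatase turns back and a lyase destroys. Acid sphingomyelinase has been reported to take part in the death of thymocytes exposed to dexamethasone, and the sphingosine-1-phosphate gradient guides mature thymocytes out of the thymus.

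Of the 8 genes, Ugcg fell with dexamethasone, 5 others were tested and did not pass, and Asah1 and Sphk1 had signals too low to test. The fall of Ugcg was seen on both of its probe sets. Sptlc1 and Sptlc2, the large subunits of serine palmitoyltransferase, had higher signals on both dexamethasone arrays than on both medium arrays without passing the test. Among the other sphingolipid genes, Sptssa, a small subunit of the same enzyme, and Sgpp1, a sphingosine-1-phosphate phosphatase, rose. A gene is called changed when its limma p, adjusted by Benjamini-Hochberg over the 5582 tested genes, was under 0.05. Over all tested genes 3.91% passed, 1.88% upwards and 2.02% downwards, and 50.5% had groups of arrays that did not overlap.

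**Figure D1:**
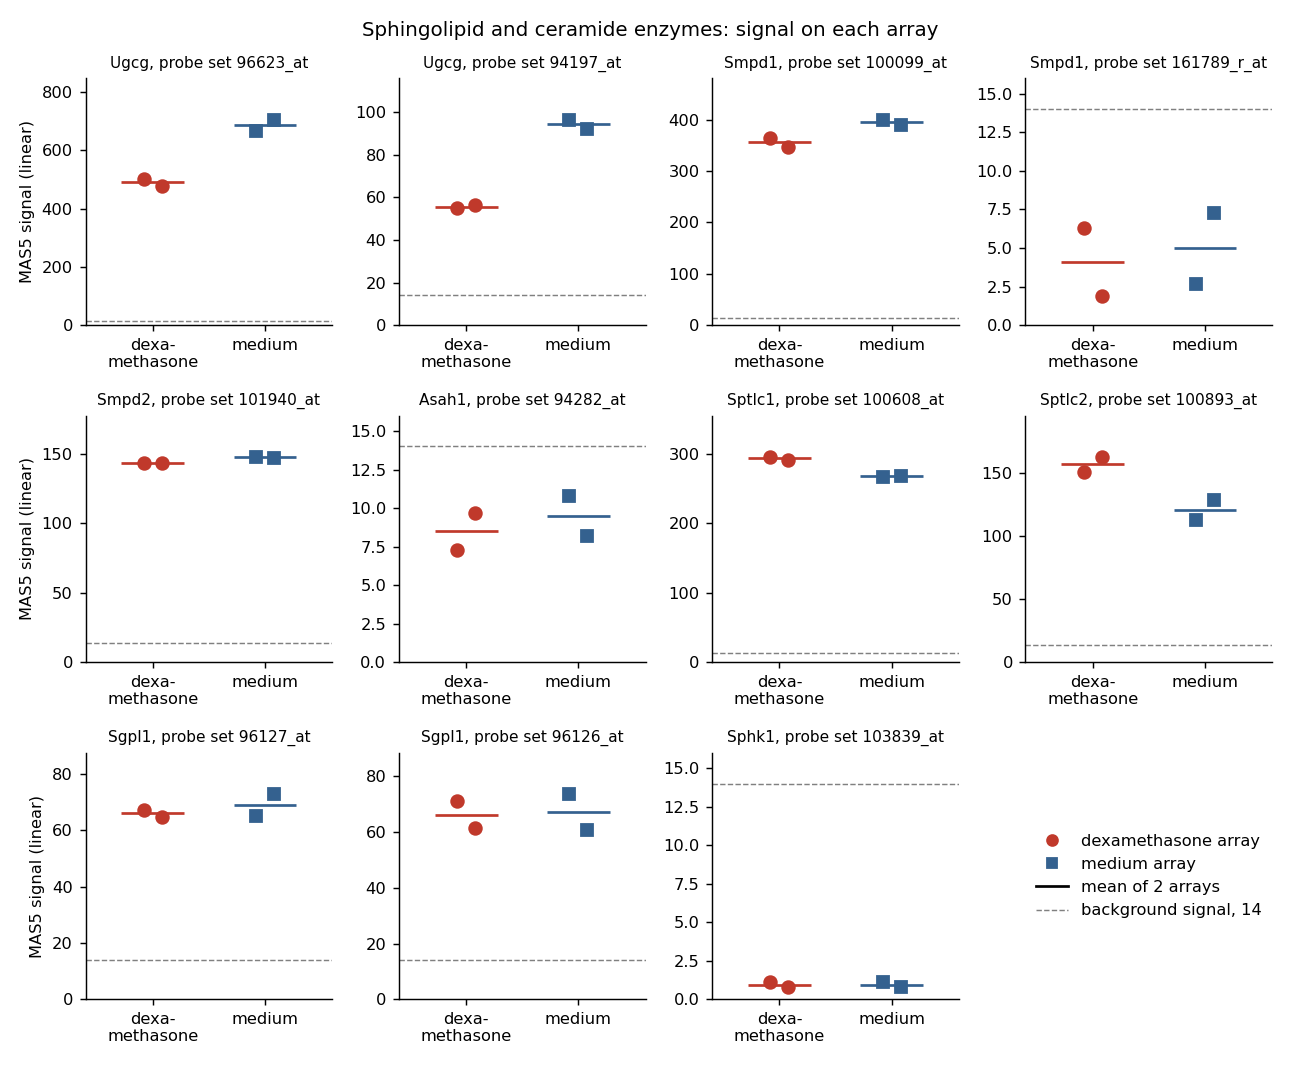
MAS5 signal on a linear scale from 0 (vertical axes) for the 11 probe sets of the 8 enzymes, with a point for each dexamethasone and medium array, a bar at the mean of 2 arrays and a dashed line at the background signal of 14. Both Ugcg probe sets were lower on the dexamethasone arrays, and Asah1, Sphk1 and the second Smpd1 probe set lay under the background line on every array.

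Values are MAS5 signals on a linear scale, a brightness per probe set after the authors' global scaling. Signal levels of different probe sets are not compared. Differences are log2 differences, dexamethasone minus medium, of signal + 1. Fkbp5, a co-chaperone gene that the glucocorticoid receptor is known to induce, had signals of 2381.8 and 2152.1 on the dexamethasone arrays, against 660.0 and 589.9 on the medium arrays, a 3.62-fold rise (adjusted p = 0.000349 in limma). All 9 measured markers of double-positive thymocytes were above background on every array. Of them 2 fell, Cd8b1 (log2 difference -0.33) and Ptcra (-0.84), against 2.02% of all tested genes. The summed signal of the 9 markers was 12743 and 11776.3 on the dexamethasone arrays, against 12385 and 11976.1 on the medium arrays. Of all probe sets, dimmer ones of a gene included, 55.6% to 57.1% were above background on each array. Some genes listed as markers of other cells were also above background on every array. These were 5 of 7 measured B cell genes and 2 of 10 macrophage and dendritic cell genes. For thymic epithelial and erythroid genes the counts were 1 of 7 and 1 of 4. Which cells gave these signals was not tested. The summed B cell signal was 514.7 and 493.2 with dexamethasone and 538.3 and 556.4 in medium. Most of it came from Cd74, with 329.9 and 322.1 with dexamethasone and 378.7 and 397.7 in medium. Of the 6 tested B cell genes, 3 went the other way, Cd79b, Ms4a1 and Pax5, which were higher on both dexamethasone arrays without passing. The sum of macrophages and dendritic cells was 131.2 and 111.4 with dexamethasone and 140.7 and 142.9 in medium. The epithelial sum, 113.7 and 112.5 with dexamethasone and 213.5 and 223.1 in medium, was carried by Cldn4, which fell, while the other 6 epithelial genes, Epcam, Foxn1 and the keratins, were at background. The erythroid sum was 157.6 and 127.3 with dexamethasone and 119.4 and 123.9 in medium. The ratio of 3′ to 5′ actin signal, which reflects RNA integrity, was 1.40 and 1.24 with dexamethasone and 1.15 and 1.06 in medium. The same ratio for Gapdh was 0.90 and 0.82 with dexamethasone and 0.84 and 0.85 in medium, and its groups overlapped. The 9 hybridization controls, transcripts added in fixed amounts, had a mean 1.37 times as high with dexamethasone as in medium, and scaling to them would move the median log2 difference of the tested genes to -0.45. All differences below are relative to the deposited scaling. The sums other than that of the double-positive markers, the actin ratio and the controls separate the groups. For the sphingolipid genes named, other than Sphk2, and for the genes nearest to Ugcg, values scaled to the controls are given where they change a direction or a call. They are those of the brightest probe set of a gene. For Sphk2 and for dimmer probe sets no such value is given. The part of the sums and of the actin ratio in the results was not tested.

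Ugcg encodes UDP-glucose ceramide glucosyltransferase, the Golgi enzyme that converts ceramide to glucosylceramide and so opens glycosphingolipid synthesis. Its brighter probe set, 96623_at, had signals of 502.3 and 478 with dexamethasone, against 665.7 and 705.6 in medium. Both dexamethasone arrays lay below both medium arrays, and the gap between the groups was larger than the spread within either. The group means were 490.2 ± 17.2 with dexamethasone and 685.7 ± 28.2 in medium (SD, n = 2 each), so that the fitted signal fell by 28.5%. The log2 difference was -0.48 ± 0.07 (SE), with a 95% interval of -0.65 to -0.32 and an adjusted p of 0.0194 in limma, and Ugcg ranked 94 of 5582 genes by p. Because the RNA came from a bulk population, fewer cells with the transcript and less transcript per cell cannot be told apart.

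The second Ugcg probe set, 94197_at, had signals of 55.0 and 56.3 with dexamethasone, against 96.6 and 92.1 in medium. The groups did not overlap here either, and the dexamethasone arrays differed from each other by little more than 1 unit of signal. In a limma fit that took each of 6701 probe sets as its own feature, 3.51% passed, 1.70% upwards and 1.81% downwards. Of the 8 probe sets of these enzymes in that fit, both of Ugcg fell and 0 rose. This probe set had a log2 difference of -0.75 ± 0.11 (SE, adjusted p = 0.0240) and the brighter Ugcg probe set one of -0.48 (adjusted p = 0.0209). Whether the 2 probe sets differ in the size of the fall was not tested. The Ugcg call rested on all 4 arrays. Without any 1 of them the log2 difference stayed between -0.53 and -0.44, but the adjusted p in limma was 0.0689 to 0.153, with a lone array in 1 group assumed to vary like the others. In a fit without the trend of variance on signal the adjusted p was 0.139. When the arrays were scaled to the hybridization controls, the log2 difference was -0.94.

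Ugcg is shown with Sptssa and Sgpp1, the sphingolipid genes that passed the test, by the 250 bases before the transcription start in RefSeq's GRCm38.p6 table, 5′ to 3′ on the strand of the gene. The reference is of C57BL/6J and not of the C3H/HeN mice used. Capitals mark the GC box GGGCGG and the half-site AGAACA of the glucocorticoid receptor, each searched on both strands (as CCGCCC and TGTTCT on the other), and no match overlapped another.
Ugcg, chr4:59189300-59189549, plus strand: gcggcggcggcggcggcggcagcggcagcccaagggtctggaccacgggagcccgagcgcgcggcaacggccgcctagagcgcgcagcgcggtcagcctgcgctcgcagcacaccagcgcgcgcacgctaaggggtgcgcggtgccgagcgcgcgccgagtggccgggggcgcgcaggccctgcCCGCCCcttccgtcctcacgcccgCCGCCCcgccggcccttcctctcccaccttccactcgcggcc
Sptssa, chr12:54656573-54656822, minus strand: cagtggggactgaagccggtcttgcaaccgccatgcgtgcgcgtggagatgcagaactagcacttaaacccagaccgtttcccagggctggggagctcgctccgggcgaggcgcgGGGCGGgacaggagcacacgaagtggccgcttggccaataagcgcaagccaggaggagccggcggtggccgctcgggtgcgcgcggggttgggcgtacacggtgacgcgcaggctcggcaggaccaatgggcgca
Sgpp1, chr12:75735730-75735979, minus strand: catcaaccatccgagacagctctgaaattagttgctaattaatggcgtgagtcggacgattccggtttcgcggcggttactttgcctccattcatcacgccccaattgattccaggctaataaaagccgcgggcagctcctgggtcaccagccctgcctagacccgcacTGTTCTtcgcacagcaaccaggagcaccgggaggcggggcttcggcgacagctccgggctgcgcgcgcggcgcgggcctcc

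The window of Ugcg was 80.4% G and C, more than 98.9% of the 32851 windows in the table, whose median was 52.4%. It held 2 GC boxes and 0 receptor half-sites. The Sptssa window was 68.8% G and C and held 1 GC box and 0 half-sites, and the Sgpp1 window was 61.2% G and C and held 0 GC boxes and 1 half-site. Of all windows 32.7% held a GC box and 16.1% a half-site. A match is a description of these letters only, and binding was not measured. Of the 8 enzymes 7 matched the table by symbol, and Asah1 is named only.

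Serine palmitoyltransferase catalyses the entry step of ceramide synthesis, and Sptlc1 and Sptlc2 encode its large subunits. Sptlc2, which carries the catalytic site and is read by probe set 100893_at, had signals of 151.2 and 163.1 with dexamethasone, against 112.8 and 128.8 in medium. Both dexamethasone arrays were above both medium arrays. The log2 difference was 0.38 ± 0.11 (SE), a 1.30-fold higher signal with a 95% interval of 1.09 to 1.55, and it did not pass over all genes (unadjusted p = 0.0103, adjusted p = 0.116 in limma). Sptlc1, read by probe set 100608_at, had signals of 296.2 and 291.5 with dexamethasone, against 267.2 and 268.6 in medium, again without overlap. Its log2 difference was 0.13 ± 0.07, with an interval of -0.04 to 0.30 and an adjusted p of 0.357 in limma. Scaled to the hybridization controls, the log2 differences were -0.075 for Sptlc2 and -0.32 for Sptlc1, so the direction of both depends on the scaling.

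Smpd1 and Smpd2 encode the acid sphingomyelinase of the lysosome and a neutral sphingomyelinase, which cut sphingomyelin to ceramide. The brighter Smpd1 probe set, 100099_at, had signals of 364.6 and 347.5 with dexamethasone, against 400.5 and 389.7 in medium. The dexamethasone arrays lay below the medium arrays by a small margin, with a log2 difference of -0.15 ± 0.07 (SE) and a 95% interval of -0.32 to 0.02 (adjusted p = 0.297 in limma). The other Smpd1 probe set, 161789_r_at, had signals of 6.3 and 1.9 with dexamethasone and 2.7 and 7.3 in medium, all under the background of 14, and gives no fold. Smpd2, on probe set 101940_at, had signals of 143.8 and 143.3 with dexamethasone, against 148 and 147.2 in medium. Its arrays did not overlap, but the log2 difference was -0.040, with an interval of -0.24 to 0.16 and an adjusted p of 0.837 in limma. Scaled to the hybridization controls, which shifted all genes downwards, both fell (-0.61 for Smpd1 and -0.49 for Smpd2).

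The remaining enzymes cut ceramide to sphingosine or act on sphingosine and its phosphate. Asah1 encodes the acid ceramidase of the lysosome. Its signals on probe set 94282_at, 7.3 and 9.7 with dexamethasone and 10.8 and 8.2 in medium, were all under background, so no fold is given. Sphk1, a kinase that makes sphingosine-1-phosphate, was read by probe set 103839_at and had signals of 1.1 and 0.8 with dexamethasone and 1.1 and 0.8 in medium, far under background. Sgpl1 encodes the lyase that irreversibly cleaves sphingosine-1-phosphate. Its brighter probe set, 96127_at, had signals of 67.3 and 64.7 with dexamethasone, against 64.9 and 72.9 in medium, and the groups overlapped. The log2 difference was -0.059 ± 0.12 (SE), with a 95% interval of -0.36 to 0.24 and an adjusted p of 0.837 in limma. The other Sgpl1 probe set, 96126_at, had signals of 70.9 and 61.2 with dexamethasone and 73.6 and 60.5 in medium, and a log2 difference of -0.018. A change of Sgpl1 within that interval was not detectable with 2 arrays a group. Scaled to the hybridization controls, Sgpl1 fell (-0.51).

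As a group, 6 of the 8 genes were tested, 1 fell and 0 rose, against 2.02% and 1.88% of all tested genes. An unadjusted p under 0.05 was found for 2 of the 6, against 19.9% of all tested genes. In 5 of the 6 the groups of arrays did not overlap, against 50.5% of all tested genes. The dexamethasone arrays were the lower ones in 3 of these and the higher ones in 2, against 25.7% and 24.7% of all tested genes. The median log2 difference was -0.049 over the 6 and 0.00074 over all tested genes, and the median size of the difference, without its sign, was 0.14 over the 6 and 0.16 over all tested genes. In the plot of all tested genes Ugcg and Sptlc2 are the members farthest from 0.

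**Figure D2:**
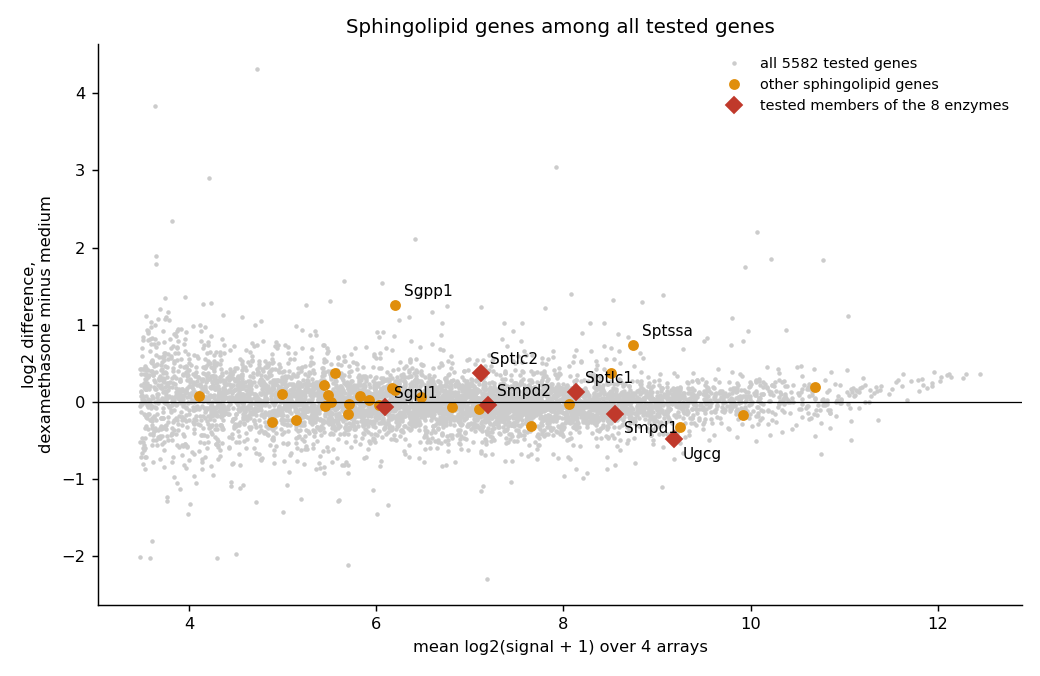
Log2 difference, dexamethasone minus medium (vertical axis), against mean log2(signal + 1) over 4 arrays (horizontal axis) for the 5582 tested genes (grey), the tested members of the 8 enzymes (diamonds) and other sphingolipid genes (circles). Ugcg lies at -0.48 among bright genes with little scatter, Sptssa at 0.74 and Sgpp1 at 1.26.

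The changes of Ugcg and of the synthesis subunits were unequal within the arrays, which a common scaling cannot alter. This comparison was chosen after the values were seen and has no test. On the log2 scale, the Ugcg signal minus the Sptlc2 signal was 1.73 and 1.55 with dexamethasone, against 2.55 and 2.44 in medium. Only its change between the groups is read, -0.86, which is the Ugcg difference minus the Sptlc2 difference given above. The groups did not overlap. The same quantity against Sptlc1 differed by -0.62, against Smpd2 by -0.44, against Sgpl1 by -0.42 and against Smpd1 by -0.33, and for each the dexamethasone arrays lay below the medium arrays. Ugcg had the largest fall of the tested members, so the sign of all these differences follows from it. The difference against Sptlc2 was between -0.996 and -0.77 over all 16 alternatives. Median centring, the filters, the trend, the replicate block and probe sets as features leave it unchanged.

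The wider pathway was followed with 8 lists that together hold 79 genes, of which 45 had a probe set naming them alone and 33 were tested. Of these 33, Sptssa and Sgpp1 rose, Ugcg fell and 30 did not pass, with a median log2 difference of 0.0034. Over all tested genes 1.88% rose and 2.02% fell, and the median was 0.00074. In ceramide synthesis, 7 of 17 listed genes were measured and tested, and 1 rose. Sptssa, whose product binds the large subunits and raises the activity of serine palmitoyltransferase, had signals of 530.9 and 570.2 with dexamethasone, against 313.3 and 347.8 in medium. Every dexamethasone array was above every medium array, and the log2 difference was 0.74 ± 0.08 (SE), a 1.66-fold rise (adjusted p = 0.00811 in limma). It was 0.28 and did not pass when scaled to the hybridization controls (adjusted p = 0.192), and without any 1 array the adjusted p was 0.0545 to 0.0846. Degs1, the dihydroceramide desaturase that forms ceramide, was named after its values were seen. It had signals of 439.7 and 389.2 with dexamethasone, against 300.6 and 335.7 in medium, and a log2 difference of 0.38 that did not pass (adjusted p = 0.0858 in limma) and was -0.076 when scaled to the hybridization controls.

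**Figure D3:**
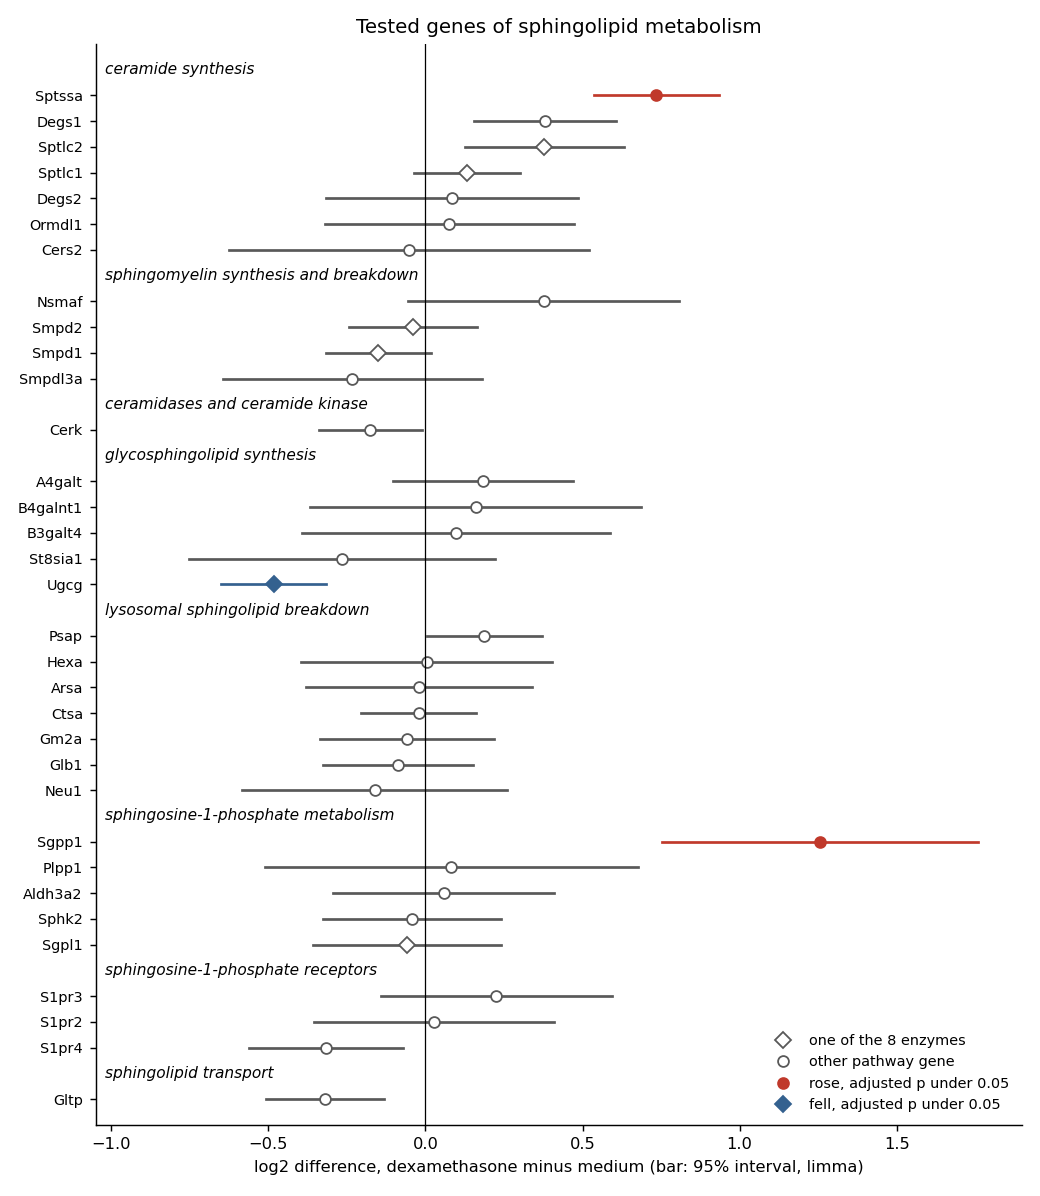
Log2 difference, dexamethasone minus medium, with its 95% interval from limma (horizontal axis) for the 33 tested sphingolipid genes, grouped by list. Diamonds are the tested members of the 8 enzymes, circles other genes, and filled symbols passed the threshold: Sptssa and Sgpp1 to the right of 0 and Ugcg to the left.

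In the metabolism of sphingosine-1-phosphate, 7 of 9 listed genes were measured, 5 were tested and 1 rose, against 1.88% of all tested genes. Sgpp1, the phosphatase that returns sphingosine-1-phosphate to sphingosine, had signals of 134.1 and 93.9 with dexamethasone, against 52.9 and 40.7 in medium. The groups did not overlap, but the dexamethasone arrays differed widely from each other. The log2 difference was 1.26 ± 0.21 (SE), a 2.39-fold rise (adjusted p = 0.0290 in limma). Without the second dexamethasone array the adjusted p was 0.0497. It was 0.114 to 0.172 without any other array, and it was 0.0680 without the filter on dim genes. The kinase gene Sphk2, the isoform with a measurable signal, had a log2 difference of -0.042, and on its other probe set of 0.070. Of the sphingosine-1-phosphate receptors, 3 of 4 measured genes were tested and 0 passed. An unadjusted p under 0.05 in limma was found for 1 of the 3, against 19.9% of all tested genes. S1pr4, a receptor of lymphoid cells, had signals of 187.4 and 172.8 with dexamethasone and 208.7 and 241.5 in medium (log2 difference -0.32), and S1pr3 had a log2 difference of 0.23. S1pr1, the receptor that mature thymocytes use to leave the thymus, was at background on all arrays, with signals of 4 and 8.4 with dexamethasone and 7.7 and 7.6 in medium.

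The other lists held no further call. Of all tested genes 1.88% rose, 2.02% fell and 19.9% had an unadjusted p under 0.05 in limma. Among genes of glycosphingolipid synthesis, 9 of 11 were measured, 5 tested and 1, Ugcg, fell. Signals of St3gal5, which makes the ganglioside GM3 downstream of Ugcg, were at background (4.2 and 4.1 with dexamethasone, 4.2 and 5.1 in medium). Of 4 tested genes of sphingomyelin synthesis and breakdown 0 passed, and 0 had an unadjusted p under 0.05. The largest differences there were 0.38 for Nsmaf, an adaptor that links a TNF receptor to neutral sphingomyelinase, and -0.23 for Smpdl3a. Cerk, the ceramide kinase, had signals of 929.9 and 895.2 with dexamethasone, against 1069.1 and 992.8 in medium, and a log2 difference of -0.18 (adjusted p = 0.221 in limma). In lysosomal breakdown 0 of 7 tested genes passed, with 1 at an unadjusted p under 0.05. The largest differences were 0.19 for Psap, the precursor of the saposin activators, and -0.16 for the sialidase gene Neu1. The Psap probe sets disagreed, the dimmer ones giving 0.022 and -0.31. Gltp, which transfers glycolipids between membranes, was the only tested transport gene. It had signals of 524.5 and 558.5 with dexamethasone, against 710.5 and 642.9 in medium, with a log2 difference of -0.32 (adjusted p = 0.0826 in limma), against 0.087 on its other probe set. The sphingomyelin synthase genes Sgms1 and Sgms2 and the neutral sphingomyelinase gene Smpd3 had no probe set naming them alone and were not analysed here. Scaled to the hybridization controls, where the median of all tested genes was -0.45, several of the named genes passed downwards: Gltp (-0.78), S1pr4 (-0.77), Smpdl3a (-0.67), Cerk (-0.63) and Neu1 (-0.61). With that scaling the log2 differences of Nsmaf (-0.071), Psap (-0.27) and S1pr3 (-0.22) changed direction and did not pass.

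Genes most like Ugcg were found by the Euclidean distance between the 4 log2 values, each gene centred on its own mean. The nearest of the tested genes were Fnbp1, Pdzd11 and Adcy6, at distances of 0.028, 0.029 and 0.042 on the log2 scale over 4 arrays. Fnbp1, a membrane-curving F-BAR protein, had signals of 106.9 and 99.5 with dexamethasone and 138.3 and 148.5 in medium. Pdzd11 had 131.1 and 125.4 with dexamethasone and 171 and 186.2 in medium, and the adenylate cyclase gene Adcy6 had 153 and 143.3 with dexamethasone and 208 and 214.2 in medium. The log2 differences were -0.47 for Fnbp1, which did not pass (adjusted p = 0.0561 in limma), -0.47 for Pdzd11 and -0.51 for Adcy6, which fell (adjusted p = 0.0460 and 0.0290). Fnbp1 passed in 3 of the 16 alternatives, among them scaling to the hybridization controls (-0.92). The call was lost in 8 alternatives for Pdzd11 and in 6 for Adcy6. The likeness is a description of 4 values per gene.

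The plot by processing alternative shows Ugcg below 0 and Sptssa and Sgpp1 above 0 in all 16 alternatives. Several of these, such as the filters and the replicate block, leave the difference unchanged and can only alter its p. The number that passed the threshold was 11 for Ugcg, 10 for Sptssa and 11 for Sgpp1.

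**Figure D4:**
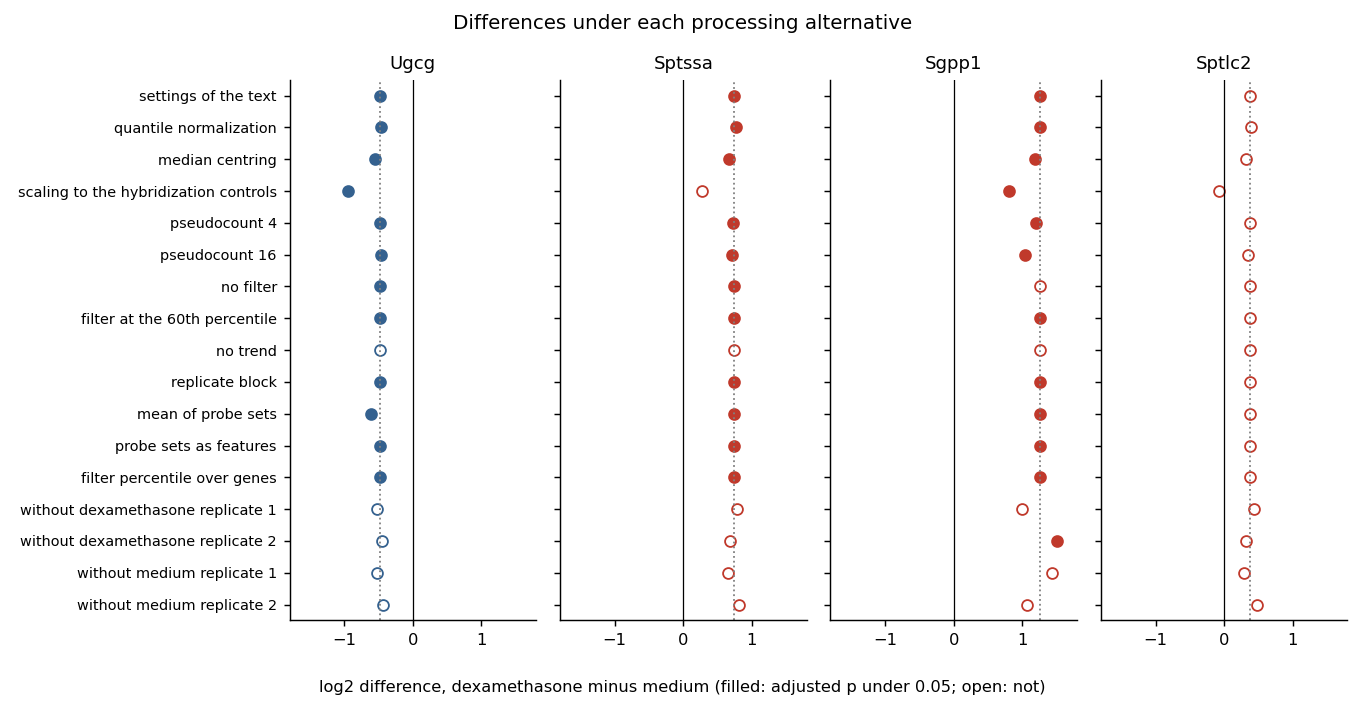
Log2 difference, dexamethasone minus medium (horizontal axes), of Ugcg, Sptssa, Sgpp1 and Sptlc2 with the settings of the text and under each of 16 alternatives (rows). Filled points had a limma adjusted p under 0.05. Sptlc2 was open throughout and crossed 0, to -0.075, when scaled to the hybridization controls.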

How the data were processed

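Signal intensities for 12488 probe sets on 4 arrays were made by the authors with MAS5, per the submitters' processing notes, and deposited on a linear scale. The version and settings are not given in the sources used here. The 2% trimmed mean was 100.1 on every array, so the values had been scaled to a common mean. Of the probe sets, 66 were controls, 10833 named 1 gene, 396 several and 1193 none. From these intensities, log2(signal + 1) was computed. A gene was represented by its brightest probe set, and genes at or under the 40th percentile of mean log2 signal over all probe sets that are no controls (a signal of 10.1) were left out, which left 5582 of 8251. Groups were compared with lmFit and eBayes with a trend (limma 3.58.1, R 4.3.3). Tests were two-sided, without a replicate block and with Benjamini-Hochberg adjustment. Background was set at 14, the highest signal of 19 probe sets for bacterial and yeast transcripts that were not added. The number of arrays limits the precision. The fit was also run on simulated data, with independent genes and variances drawn from its own estimates. That run does not cover array-wide shifts or the spread between animals.

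The 8 genes, the lists of pathway and marker genes, the alternatives and the choice of genes to name were made with earlier results of these data known. The rule for naming covered all 8 genes, every listed gene that passed and, in lists where none did, the 2 tested genes with the largest difference. It also named Fkbp5 and the 3 genes nearest to a member that passed. Degs1, Sphk2, S1pr1 and St3gal5 are given with values outside this rule. The alternatives were 3 scalings, pseudocounts of 4 and 16, other filters, no trend, a replicate block, other uses of probe sets and leaving out each array.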

Additional observations from a re-analysis of the deposited data

How the results depend on the processing

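The direction of Ugcg was the same in all 16 alternatives (-0.94 to -0.44). The filters, the trend, the replicate block and probe sets as features leave the log2 difference itself unchanged, so its direction was fixed there. The Ugcg call was lost in 5: without the trend (log2 difference -0.48, adjusted p = 0.139 in limma) and without each array (-0.53 to -0.44). Scaling to the hybridization controls gave 2514 changed genes (43 rose, 2471 fell) against 218 (105 rose, 113 fell), and 1 rise and 14 falls among the 33 sphingolipid genes against 2 and 1. With it Smpd1 (-0.61), Smpd2 (-0.49) and Sgpl1 (-0.51) passed downwards, and the log2 difference reversed for Sptlc1 (-0.32), Sptlc2 (-0.075), Degs1 (-0.076), Nsmaf (-0.071), Psap (-0.27) and S1pr3 (-0.22). This scaling divides each array by its own factor, so it shifts the log2 differences of all genes nearly alike. It also changes the fitted variances and so the calls. The SE of the second Ugcg probe set was 0.21 with it, against 0.11 with the deposited scaling. Psap also reversed with the mean of its probe sets (-0.033), Sgpl1 without the second medium array (0.024) and Neu1 without the first dexamethasone array (0.013, with a range of -0.34 to 0.013 over the arrays left out). Without the filter 116 genes changed (63 rose, 53 fell), with 1 sphingolipid rise. Without the trend 19 changed (17 rose, 2 fell), with 0 sphingolipid rises and 0 falls. With probe sets as features 2 sphingolipid probe sets fell, both of Ugcg. With the replicate block 353 genes changed (169 rose, 184 fell) and Ugcg, Sptssa and Sgpp1 still passed. The replicate numbers are not known to pair the extracts, and the correlation across genes of the differences between replicates 1 and 2 was 0.072. Leaving out each array gave 32 to 78 changed genes, 27 to 47 rises and 3 to 31 falls, and 0 to 1 rises and 0 falls among the sphingolipid genes. The ranges were -0.18 to -0.12 for Smpd1, -0.044 to -0.036 for Smpd2, 0.12 to 0.14 for Sptlc1, 0.28 to 0.47 for Sptlc2 and -0.14 to 0.024 for Sgpl1. The filter percentile taken over genes was added after the data were seen. Causes were not tested, other than that fewer arrays, more genes tested and a common shift are part of these alternatives. Asah1 and Sphk1 lay under background, which limits what can be said of them.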
